A study of Mus musculus with 9 samples.

Results

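Transcript levels of carbonic anhydrase genes were measured by RNA-seq in E14, a mouse embryonic stem cell line of strain 129/Ola. Of the 16 family members annotated as Car genes, 7 are treated in detail, namely Car2, Car4, Car7, Car8, Car12, Car13 and Car14, out of 38293 genes in the count table. They were picked by name, with the high level of Car4 in EpiLC already known, so values of these 7 genes in comparisons with EpiLC are given as a description, without a test. The other 9 family members are Car1, Car3, Car5a, Car5b, Car6, Car9, Car10, Car11 and Car15.

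The cells were grown in 3 states with 3 biological replicates each. mESC-2i were kept in N2B27 medium with 1 µM PD0325901, which inhibits MEK, 3 µM CHIR99021, which inhibits GSK3, and 10 ng/mL leukaemia inhibitory factor (LIF). mESC-ser were kept in DMEM with 15% foetal bovine serum and 10 ng/mL LIF. EpiLC, epiblast-like cells, were obtained from the mESC-2i state on human plasma fibronectin in N2B27 with 20 ng/mL activin A, 12 ng/mL bFGF and 1% KSR, without the inhibitors or LIF in the stated medium. All libraries came from a single cell line, and the labels do not say whether replicates were separate cultures, so the errors describe the spread between these libraries. Base medium, supplements and coating differ together between the states and cannot be told apart.

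Carbonic anhydrases are mostly zinc enzymes that interconvert carbon dioxide and water with bicarbonate and a proton, and so set how fast a cell can buffer and move acid. Car2, Car7 and Car13 work in the cytosol. Car4 is held on the outer face of the plasma membrane by a lipid anchor, and Car12 and Car14 are membrane-spanning enzymes whose catalytic domain also faces outwards. Car8 has lost the zinc-binding site and the activity, and is known as a binding partner of the inositol trisphosphate receptor in neurons.

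Total counts ranged from 7187576 to 16829549 per library. Levels are in CPM, reads of a gene relative to all reads of its library, after scaling by the trimmed mean of M values (TMM) over the 9 libraries, and a count of 3, taken as the floor, corresponds to 0.168 to 0.416 CPM. Summed levels of 10 pluripotency and epiblast genes were similar in the 3 states, at 2840 to 3340 CPM in mESC-2i, 2750 to 2870 with serum and 2870 to 2930 as EpiLC, and within them Klf4, a naive gene, had 361 ± 17.8 CPM (SD, n = 3) with 2i, 149 ± 16.9 with serum and 1.31 ± 0.632 as EpiLC. Fgf5, an epiblast gene, ran the other way, with 0.0797 ± 0.0813, 3.82 ± 0.701 and 126 ± 5.74 CPM. Of the 10 genes, 4 rose and 5 fell in EpiLC against mESC-2i, beside 69.8% of all tested genes past the thresholds given below. The similar sums thus cover opposite changes. Markers of other lineages also moved with the states. The 9 primitive endoderm markers summed to 234 to 310 CPM in mESC-2i, 227 to 269 with serum and 24.8 to 29 as EpiLC, and the 9 trophectoderm markers to 125 to 145, 240 to 260 and 90.2 to 93.5, with Elf5 at 0 in EpiLC. These sums rest on few genes. Lama1 gave 212 ± 36.4 and 117 ± 10.5 CPM of the first with 2i and serum. Krt18 gave 59.8 ± 2.99 CPM of the trophectoderm sum in EpiLC. Of 8 tested primitive endoderm markers, 5, such as Gata6, rose in mESC-ser against mESC-2i and 3 fell. Of all tested genes, 25.9% were called higher and 30.3% lower in that comparison. The 9 mesoderm and streak markers summed to 112 to 127, 23 to 27.4 and 16.9 to 19.3 CPM, with Hbb-bh1 at 0 in all libraries, and the 8 neural and fibroblast markers to 104 to 112, 162 to 187 and 69.2 to 75. Their part in the levels of the carbonic anhydrases was not tested. In bulk RNA, a change in the number of cells that make a transcript and a change in the amount per cell cannot be told apart.

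The carbonic anhydrase transcripts of each state were of different kinds. In mESC-2i the leading genes were Car13, Car8 and Car2. In mESC-ser most was Car2. In EpiLC it was Car4 together with Car2, and Car14 and Car7, low in both stem cell states, were present at moderate levels. Figures for each gene follow, ordered by where the protein acts.

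Among the enzymes that face outwards, Car4 (ENSMUSG00000000805, chromosome 11, 84957786 to 84966044, plus strand, GRCm38) showed the widest range. Its level was 0, 0.325 and 0.153 CPM in replicates 1, 2 and 3 of mESC-2i, from 0, 4 and 2 reads. In mESC-ser it was 12.3, 12.0 and 9.91 CPM, from 179, 144 and 177 reads. In EpiLC it was 219, 231 and 228 CPM, from 1582, 2049 and 1759 reads. The 3 states did not overlap, and mESC-2i lay at or near the floor. Such separation is common here: groups did not overlap for 70.6% of tested genes between mESC-ser and mESC-2i, for 81.5% between EpiLC and mESC-2i and for 85.6% between EpiLC and mESC-ser. Car4 was 5.87 ± 0.36 higher on the log2 scale (SE, edgeR) in mESC-ser than in mESC-2i, given without a p because its choice rested on the same mESC-2i libraries. The ratio of pooled counts was 62.9, with a 95% counting interval of 28.7 to 172, since only 6 reads lay in mESC-2i. Without replicate 2 of mESC-2i, which held 4 of them, the difference was 6.73 on the log2 scale. Car4 was 39th from the top of 15728 tested genes by fold change in that comparison. EpiLC stood a further 4.32 ± 0.10 above mESC-ser, and 10.12 ± 0.23 above mESC-2i, or 10.99 without that replicate. The comparison of EpiLC with mESC-2i is a ratio of pooled counts of 1270 with an interval of 582 to 3450, and put Car4 3rd of 15378 genes, the kind of value that entered its choice.

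The start of Car4 lies in a stretch with a moderate number of CpG dinucleotides. The window from RefSeq (GRCm38.p6, chr11:84957504-84957803, plus strand, 250 bases before to 50 after the start) is printed below 5′ to 3′ because Car4 has the widest range of the family, with CpG in capitals.

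Car4: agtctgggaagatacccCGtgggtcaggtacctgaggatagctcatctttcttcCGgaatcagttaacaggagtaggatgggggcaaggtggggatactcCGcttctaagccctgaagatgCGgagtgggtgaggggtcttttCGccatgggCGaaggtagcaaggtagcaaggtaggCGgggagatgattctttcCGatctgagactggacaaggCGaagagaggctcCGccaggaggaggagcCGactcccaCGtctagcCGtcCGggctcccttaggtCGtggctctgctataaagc

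It holds 15 CpG and 57.3% G or C, and 34.6% of 32841 promoter windows hold as many CpG, against a median of 7 CpG and 52.7% G or C. Of 6 short motifs searched on both strands, TATAAA, held by 13.6% of windows, and ACGTG, held by 19.6%, were found, the first of them after the start, close to the end of the window. The window held no GC box (GGGCGG), no octamer (ATGCAAAT), no OTX-type core (GGATTA) and no TCF-type core (CTTTGA), which occur in 35.7%, 1.74%, 7.06% and 16% of windows. Such matches are descriptions of letters, and no binding data bear on them here.

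Car14 (ENSMUSG00000038526, chromosome 3, 95897768 to 95904691, minus strand) was low in both stem cell states. Its level was 1.6, 1.95 and 1.38 CPM in mESC-2i and 0.826, 1.5 and 1.34 in mESC-ser, with overlap. In EpiLC it was 18.3, 20.1 and 20.0 CPM, apart from every other library. The difference between mESC-ser and mESC-2i was -0.48 ± 0.30 on the log2 scale and did not pass the test (adjusted p = 0.183, edgeR). EpiLC stood 3.47 ± 0.18 above mESC-2i and 4.0 ± 0.18 above mESC-ser. Exons of Car14 and of Aph1a, a gamma-secretase subunit on the opposite strand, overlap, and 15.7% of the 50-base stretches of Car14 exons are also exon of Aph1a. The library kit does not mark strand, so reads there cannot be assigned to either. Aph1a was at 40.0 ± 6.43, 31.2 ± 2.81 and 25.8 ± 1.78 CPM in mESC-2i, mESC-ser and EpiLC, its lowest level where Car14 was highest.

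The Car14 window (chr3:95904636-95904935, minus strand) is shown beside that of Car4 because both genes had their high level in EpiLC.

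Car14: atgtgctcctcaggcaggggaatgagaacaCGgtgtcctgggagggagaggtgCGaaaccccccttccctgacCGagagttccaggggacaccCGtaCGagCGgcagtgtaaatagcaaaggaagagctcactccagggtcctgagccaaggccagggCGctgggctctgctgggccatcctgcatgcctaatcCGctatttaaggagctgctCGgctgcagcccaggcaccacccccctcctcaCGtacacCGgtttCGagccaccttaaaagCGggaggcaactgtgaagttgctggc

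This window holds 13 CpG and 61.0% G or C, a CpG number reached by 37.9% of windows. It shares ACGTG with the Car4 window, lacks TATAAA, and holds GGATTA, found in 7.06% of windows.

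Car12 (ENSMUSG00000032373, chromosome 9, 66713686 to 66766845, plus strand), the other membrane-spanning enzyme, stayed low. Its level was 1.97, 1.79 and 2.83 CPM in mESC-2i, and 1.45, 1.92 and 1.40 in mESC-ser. EpiLC held 1.11, 2.37 and 2.21 CPM. The libraries of the 3 states overlapped. With 46 to 75 reads per state, the difference between mESC-ser and mESC-2i was -0.55 ± 0.27 (adjusted p = 0.0981, edgeR), and those of EpiLC from mESC-2i and mESC-ser were -0.30 ± 0.33 and 0.31 ± 0.30. Corrected for exon length and GC content, Car12 was -0.70 in mESC-ser against mESC-2i, past the threshold, and its differences in EpiLC were 0.37 and 1.08, so its sign in EpiLC against mESC-2i turned with that correction.

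**Figure D1:**
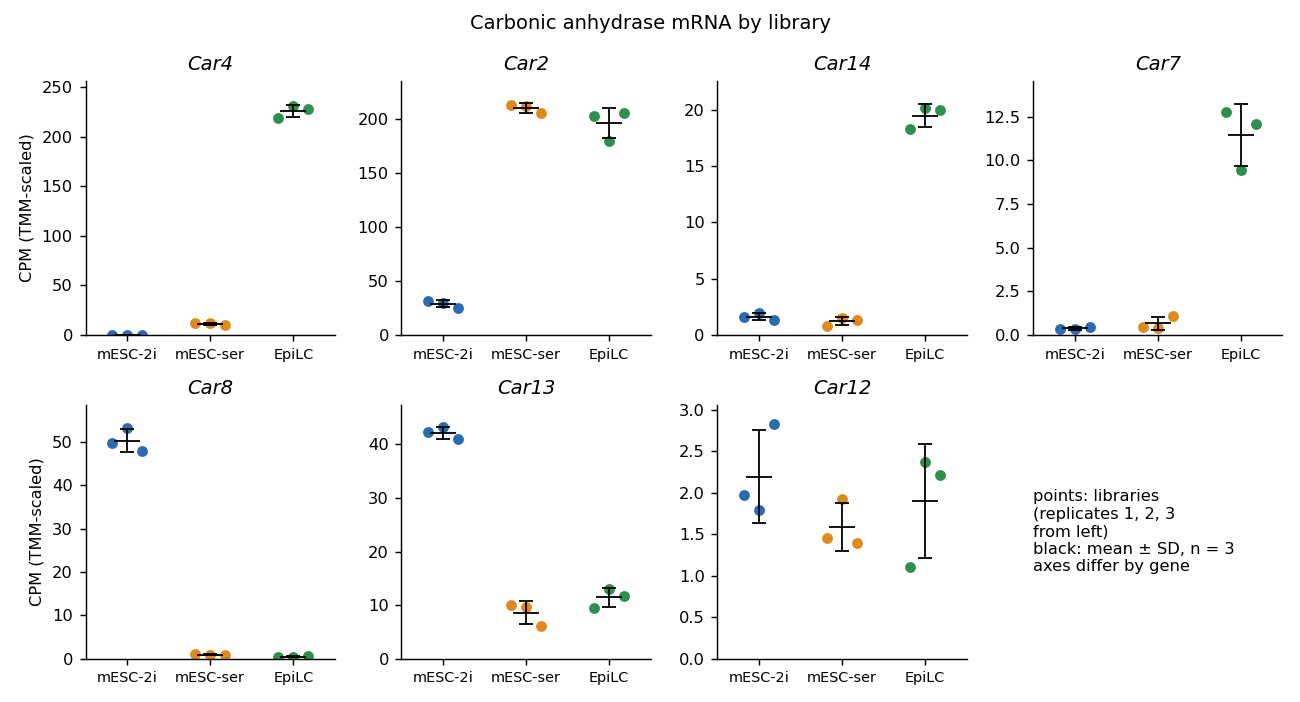
Level of each of the 7 genes in every library, in TMM-scaled CPM on linear axes that differ by gene; coloured points are libraries and black bars the mean ± SD (n = 3). Car4, Car14 and Car7 are high in the 3 EpiLC libraries, Car8 and Car13 in the 3 mESC-2i libraries, Car2 in both mESC-ser and EpiLC, and the Car12 libraries overlap.

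Of the cytosolic enzymes, Car2 (ENSMUSG00000027562, chromosome 3, 14886273 to 14900770, plus strand), a fast and widely expressed isoform, was well expressed in every state. Its level was 31.7, 29.6 and 25.3 CPM in mESC-2i and 213, 212 and 205 in mESC-ser. In EpiLC it was 203, 180 and 205 CPM. The mESC-2i libraries lay apart below the other 6. Every EpiLC library lay below every mESC-ser library, the nearest ones both at 205 CPM after rounding, and 85.6% of tested genes did not overlap in that comparison. Car2 rose by 2.82 ± 0.11 in mESC-ser against mESC-2i, a 7.05-fold difference (adjusted p = 3.34e-08, edgeR). EpiLC stood 2.68 ± 0.11 above mESC-2i. EpiLC and mESC-ser were close, at -0.09 ± 0.08, or -0.43 when libraries are scaled by total count alone.

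Car7 (ENSMUSG00000031883, chromosome 8, 104534689 to 104550343, plus strand), best known from neurons, was at 0.369, 0.325 and 0.459 CPM in mESC-2i and 0.482, 0.416 and 1.12 in mESC-ser, with 13 and 32 reads in all. These levels are near the floor, the libraries overlapped, and the gene was not tested in that pair. The ratio of pooled counts was 1.86, with a counting interval of 0.949 to 3.86. In EpiLC Car7 was at 12.8, 9.48 and 12.1 CPM, apart from the stem cell libraries. It stood 4.74 ± 0.27 above mESC-2i and 3.97 ± 0.26 above mESC-ser, or 4.62 without replicate 3 of mESC-ser, the highest of that group. RefSeq gives Car7 3 start sites. The window of the first (chr8:104534450-104534749, plus strand) holds 28 CpG, a number reached by 14.2% of windows, and none of the 6 motifs. The windows of the other two starts hold 21 and 35 CpG and the GC box.

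Car13 (ENSMUSG00000027555, chromosome 3, 14641727 to 14663002, plus strand) had its high level in mESC-2i, unlike Car2 and Car7. It was at 42.3, 43.2 and 41.0 CPM in mESC-2i, and 9.98, 9.74 and 6.16 in mESC-ser. EpiLC gave 9.56, 13.0 and 11.8 CPM. The mESC-2i libraries were all above the other 6, and those of mESC-ser and EpiLC overlapped. Car13 fell by 2.35 ± 0.17 in mESC-ser against mESC-2i (adjusted p = 1.33e-06, edgeR). EpiLC stood at -1.96 ± 0.13 from mESC-2i and 0.44 ± 0.18 from mESC-ser. That last value lay short of the fold threshold with all libraries and past it, at 0.56, 0.53 and 0.56, without replicate 1 or replicate 2 of mESC-ser or replicate 1 of EpiLC.

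Car8 (ENSMUSG00000041261, chromosome 4, 8143362 to 8239041, minus strand), which lacks activity, was at 49.8, 53.2 and 48.0 CPM in mESC-2i. It was at 1.03, 0.916 and 0.784 CPM in mESC-ser, from 40 reads in all, and at 0.416, 0.339 and 0.649 in EpiLC, from 11. The mESC-2i libraries lay far above the other 6, which were low in both states. Car8 was 5.83 ± 0.16 lower in mESC-ser than in mESC-2i (SE, edgeR), 59th from the bottom of 15728 genes. No p is given, because Car8 passed the filter on low counts only in comparisons with mESC-2i, where it was highest. Pooled counts in mESC-2i were 55.8 times those in mESC-ser, with a counting interval of 40.8 to 78.5, and 109 times those in EpiLC, with an interval of 60.6 to 218. The fitted difference of EpiLC from mESC-2i was -6.81 ± 0.19. EpiLC and mESC-ser were too low in Car8 for a test of their own, and their pooled ratio of 0.513 had a counting interval of 0.238 to 1.02. In a fit over all 9 libraries the difference was -1.01.

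Of the 7 genes, 6 passed the filter on low counts between mESC-ser and mESC-2i. Of these, 2 were called higher, Car2 and Car4, beside 25.9% of all tested genes, and 2 lower, Car8 and Car13, beside 30.3%. The calls of Car4 and Car8 carry the limits given above. Car12 and Car14 did not pass the threshold of an adjusted p under 0.05 with a log2 fold change over 0.5 in size. The share of 4 in 6 stands beside 56.2% of all tested genes called in that comparison, and is close to that background. Changes over 3 on the log2 scale were less common, at 4.72% of tested genes, and Car4 and Car8 were among them. Because of the limits on both genes, they are not set against that share. The median of the 6 log2 fold changes was -0.51, and that of all genes -0.04. In EpiLC against mESC-2i all 7 passed the filter and 6 lay past the same thresholds, beside 69.8% of all genes, and in EpiLC against mESC-ser 3 of 6 did, beside 73.3%. Nothing is read from the last 2 counts, since those contrasts entered the choice of the genes. The comparisons share libraries pairwise, so their values are not independent of each other.

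**Figure D2:**
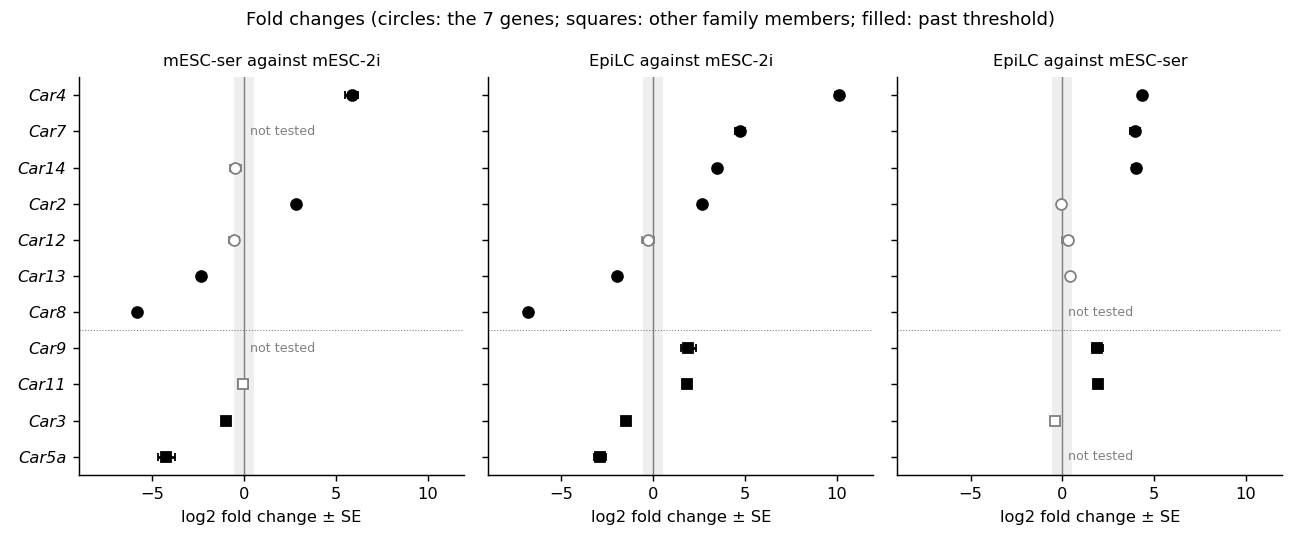
Log2 fold change ± SE (edgeR) of the 7 genes (circles) and of 4 other family members (squares) in the 3 comparisons; filled symbols lie past the thresholds, and the grey band marks differences up to 0.5 in size. Car4 and Car8 lie farthest from 0 in mESC-ser against mESC-2i, at 5.87 and -5.83, and the circles in the EpiLC panels are a description.

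Of the 9 remaining family members, 4 passed the filter in at least 1 comparison. Car3, a cytosolic isoform with weak activity, fell by 1.01 ± 0.18 in mESC-ser (adjusted p = 0.000585, edgeR) and by 1.47 ± 0.20 in EpiLC (adjusted p = 5.2e-05), both against mESC-2i, from 14.4 ± 2.23 CPM. Car5a, a mitochondrial isoform, fell by 4.25 ± 0.46 (adjusted p = 1.98e-05) and 2.92 ± 0.33 (adjusted p = 1.34e-05) from 4.2 ± 0.978 CPM. The first value was -5.16 without replicate 3 of mESC-ser. The Car5a values are uncertain, because 20.9% of its 50-base stretches also occur in other genes. Car9, a membrane enzyme known for induction by hypoxia, was at 2.53 ± 0.749 CPM in EpiLC. It stood 1.92 ± 0.42 above mESC-2i there, or 2.58 without replicate 3 of mESC-2i, and 1.91 ± 0.31 above mESC-ser. Its counts per library were 4 to 13 in mESC-2i, 8 to 13 in mESC-ser and 12 to 26 in EpiLC. Car9 passed the filter only in comparisons with EpiLC, where it was highest, so no p is given. Car11, an inactive relative like Car8, rose in EpiLC by 1.85 ± 0.23 against mESC-2i (adjusted p = 2.92e-05, edgeR). Against mESC-ser it rose by 1.95 ± 0.19 (adjusted p = 4.85e-08, edgeR), to 7.88 ± 1.03 CPM. Car1, Car5b, Car6, Car10 and Car15 did not pass the filter in any comparison. Of the 9, mESC-ser against mESC-2i gave 2 calls of 3 tested, EpiLC against mESC-2i 4 of 4 and EpiLC against mESC-ser 2 of 3. All tested genes were called at 56.2%, 69.8% and 73.3%. Car5a and Car9 enter these counts with the limits above.

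To compare levels between genes, CPM was divided by the exonic length in kb. The 16 genes then summed to 54.3 ± 1.75 CPM per kb in mESC-2i, 102 ± 3.18 with serum and 220 ± 5.7 as EpiLC (SD, n = 3). With total-count scaling the sums were 61.3, 107 and 185. Car13 made up 33.8% of the sum in mESC-2i, Car8 24.1%, Car2 21.9% and Car3 9.23%. Car2 made up 85.3% in mESC-ser, and Car4 5.70%. In EpiLC Car4 made up 52.3%, Car2 36.7% and Car14 3.47%. Per kb of exon, Car4 in EpiLC was at 115 ± 3.18 CPM and Car2 at 81.0 ± 5.75, which did not overlap. In mESC-2i, Car13 at 18.3 ± 0.5, Car8 at 13.1 ± 0.683 and Car2 at 11.9 ± 1.35 CPM per kb formed the order, in which the last pair lay within its spread. Leaving out the inactive Car8, Car10 and Car11, the sums were 40.1 ± 1.34, 100 ± 3.2 and 216 ± 5.25 CPM per kb. These sums count transcripts and not enzyme activity, which differs between isoforms. Both sets of sums include Car4, whose high level in EpiLC was known when the genes were picked. Car4 was at 5.8 ± 0.664 CPM per kb in mESC-ser and 115 ± 3.18 in EpiLC, while Car2 was at 86.8 ± 1.84 and 81.0 ± 5.75. The higher sums in EpiLC are therefore a description and are not read as a rise of the family.

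**Figure D3:**
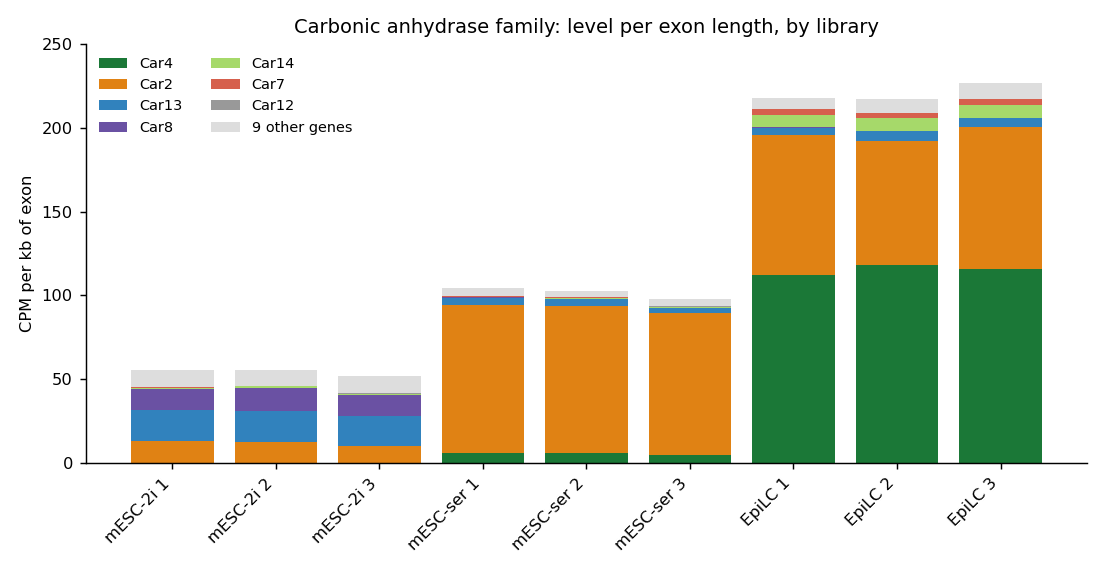
Stacked level of the carbonic anhydrase genes in each of the 9 libraries, in CPM per kb of exon; the grey segment is the sum of the 9 other genes. The stack is about 54.3 in mESC-2i, led by Car13, 102 in mESC-ser, led by Car2, and 220 in EpiLC, led by Car4 and Car2.

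Car13, Car1, Car3 and Car2 lie in this order in a cluster on chromosome 3, with gaps of 103.2, 55.1 and 13.8 kb between gene bodies. Its ends went opposite ways in mESC-ser against mESC-2i, with Car13 down by 2.35 and Car2 up by 2.82 on the log2 scale. Car3, 13.8 kb from Car2 and on the same strand, fell, and Car1 held 2 reads over the 9 libraries. The nearest genes of the other members moved in either direction, some with the member and some not. Next to Car14, BC028528 and Anp32e rose in EpiLC against mESC-2i, by 2.10 ± 0.35 (adjusted p = 0.000225, edgeR) and 0.72 ± 0.09 (adjusted p = 2.68e-05), as Car14 was higher there, and the second call was lost at 0.38 with total-count scaling. Next to Car4, Znhit3 rose in EpiLC by 1.56 ± 0.16 against mESC-2i (adjusted p = 6.17e-06, edgeR) and Usp32 fell by 1.82 ± 0.16 (adjusted p = 1.71e-06). The nearest protein-coding genes of Car8 are far from it. On chromosome 4, Tox ends at 6991557, Car8 starts at 8143362 and Rab2a starts at 8535644. Tox fell by 1.81 ± 0.29 in mESC-ser (adjusted p = 0.000314) and 4.57 ± 0.62 in EpiLC (adjusted p = 5.39e-05) against mESC-2i. It held only 73, 28 and 2 reads in mESC-2i, mESC-ser and EpiLC, and leaving out replicate 2 or 3 of EpiLC gave -3.97 or -7.46. Rab2a rose by 0.67 ± 0.10 in EpiLC against mESC-2i (adjusted p = 8.16e-05). Total-count scaling moved the median of all genes there from -0.11 to -0.45, so the size of this rise depends on the scaling. Beside Car7, Pdp2 fell in EpiLC by 1.78 ± 0.14 against mESC-2i (adjusted p = 8.93e-07), while Car7 was higher there, and its other neighbour Nae1 was at -0.05 ± 0.09 and not called. Next to Car13, 1810022K09Rik rose in EpiLC by 1.96 ± 0.10 against mESC-2i (adjusted p = 5.91e-08), where Car13 was lower, and next to Car12 Usp3 fell in EpiLC by 1.64 ± 0.13 (adjusted p = 9.15e-07) and Aph1b fell by 2.42 ± 0.28 in mESC-ser (adjusted p = 2.76e-05) and fell by 3.12 ± 0.34 in EpiLC (adjusted p = 1.11e-05) against mESC-2i.

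**Figure D4:**
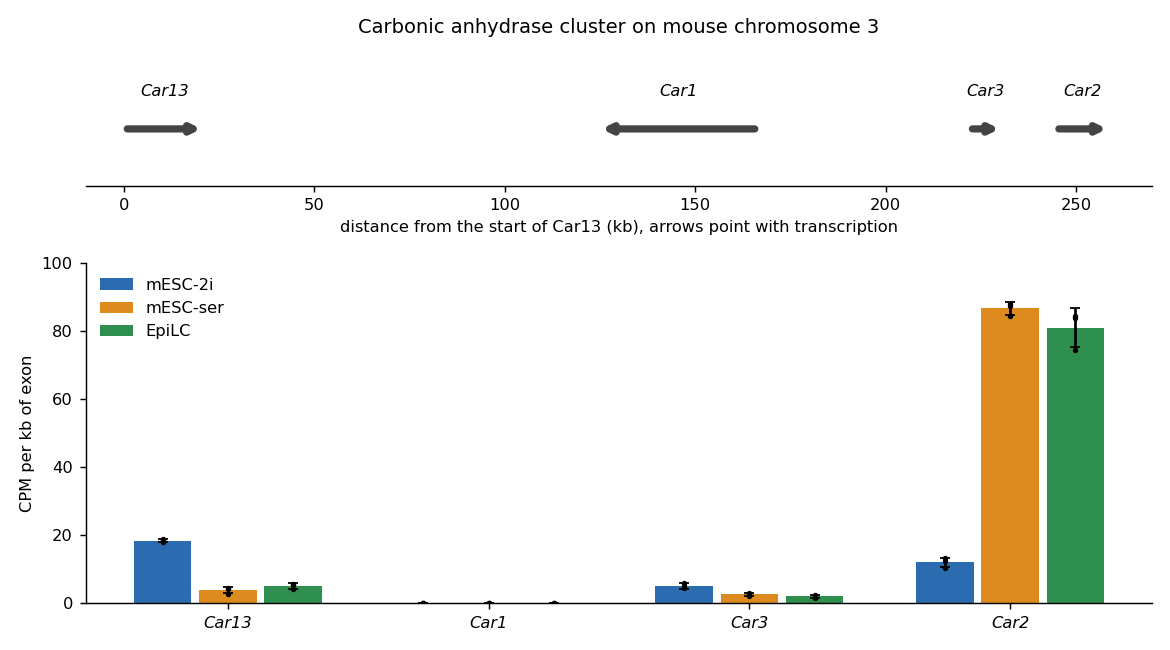
Top, gene bodies of the chromosome 3 cluster by distance from the start of Car13 in kb, with arrows along transcription; bottom, level of each gene per state in CPM per kb of exon as mean ± SD (n = 3) with libraries as points. Car13 is high in mESC-2i, Car2 in mESC-ser and EpiLC, and Car1 is near 0.

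The genes whose profile over the 9 libraries lay closest to each member were found by the root mean square difference of centred log2 CPM. Candidates were limited to genes well above the floor in their highest state, and genes with clone names (Gm or Rik) were left out. Genes as low as Car12 could therefore not be named. The closest to Car4 were Fgf5, at 0.53, and Tmem54, at 0.64. Slc35d3 at 0.31 and Rab25 at 0.34 were closest to Car7, and Mdk at 0.21 and Fcor at 0.29 to Car14. For Car2 they were Plxdc2 at 0.13 and Smpdl3b at 0.15. Tfap2b at 0.30 and Msx3 at 0.32 were nearest to Car8, Oas1a at 0.18 and Cd63-ps at 0.19 to Car13, and Alg12 at 0.18 and Slc38a6 at 0.23 to Car12. These are descriptions over 9 libraries in 3 states.

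Carbonic anhydrases act together with proteins that carry bicarbonate, protons and lactate across membranes and with carboxylases that use bicarbonate. Of 14 bicarbonate transporters, 3 rose and 2 fell of 8 tested in mESC-ser against mESC-2i, 1 rose and 3 fell of 7 in EpiLC against mESC-2i, and 2 rose and 2 fell of 7 in EpiLC against mESC-ser. All tested genes were called at 56.2%, 69.8% and 73.3% in these comparisons, so that calls in the list were about as common or less so. Slc4a3, an anion exchanger, rose by 1.48 ± 0.24 in mESC-ser (adjusted p = 0.000346) and 2.15 ± 0.24 in EpiLC (adjusted p = 1.13e-05) against mESC-2i. Slc4a7, a sodium bicarbonate cotransporter, was at 30.1, 27.2 and 34.5 CPM in mESC-2i, and 86.0, 89.9 and 91.6 in mESC-ser. Its EpiLC levels of 12.6, 10.4 and 15.3 CPM were below both. It thus rose by 1.49 ± 0.12 in mESC-ser (adjusted p = 1.99e-06) and fell in EpiLC by 1.36 ± 0.16 against mESC-2i (adjusted p = 1.8e-05), a call lost at -0.48 when corrected for length and GC content. Slc4a5, of the same family, fell by 1.94 ± 0.13 in mESC-ser against mESC-2i (adjusted p = 5.84e-07) and was higher by 2.09 ± 0.11 in EpiLC against mESC-ser (adjusted p = 2.37e-11).

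Among 15 proton and lactate exporters, 4 rose and 2 fell of 10 tested in mESC-ser against mESC-2i, 4 rose and 3 fell of 9 in EpiLC against mESC-2i, and 4 rose and 1 fell of 10 in EpiLC against mESC-ser, beside 56.2%, 69.8% and 73.3% of all tested genes called. Exporters and enzymes are named by the size of their difference between EpiLC and mESC-2i, so that difference is given for them without a test. Their differences between mESC-ser and mESC-2i rest on the same mESC-2i libraries and are also given without a p. The lactate transporter Slc16a3 was at 35.3, 40.0 and 54.0 CPM in mESC-2i, and 103, 104 and 101 in mESC-ser. At 647, 663 and 673 CPM, EpiLC formed a separate range above both. Slc16a3 was 1.19 ± 0.15 higher in mESC-ser than in mESC-2i, and EpiLC stood 3.84 ± 0.16 above mESC-2i. Emb, a chaperone subunit of lactate transporters, was 3.49 ± 0.15 higher in mESC-ser than in mESC-2i, and EpiLC stood 4.51 ± 0.14 above mESC-2i. Bsg, the other such subunit, was 0.65 ± 0.12 lower in mESC-ser than in mESC-2i. With the length and GC correction that difference was -0.26, short of the fold threshold. In EpiLC Bsg was 0.97 ± 0.12 higher than in mESC-2i. The sodium-proton exchanger Slc9a8 was at -1.16 ± 0.27 in EpiLC against mESC-2i. Replicate 3 of mESC-2i stood apart at 78.0 CPM, the difference was -0.69 without it, and in the length and GC correction it was -0.45.

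Of 10 bicarbonate-using enzymes, 2 rose and 1 fell of 8 tested in mESC-ser against mESC-2i, 3 rose and 2 fell of 8 in EpiLC against mESC-2i, and 1 rose and 2 fell of 8 in EpiLC against mESC-ser, beside the same shares of all genes. The first count of 3 became 5 when any replicate of mESC-ser was left out. Acaca, which makes malonyl-CoA for fatty acid synthesis, was 1.16 ± 0.12 higher in mESC-ser than in mESC-2i, and EpiLC stood 0.90 ± 0.12 above mESC-2i. Pccb, a subunit of propionyl-CoA carboxylase, was at -1.04 ± 0.14 in mESC-ser and at -1.24 ± 0.11 in EpiLC, both against mESC-2i. Acacb, an acetyl-CoA carboxylase at mitochondria, was 1.02 ± 0.15 higher in EpiLC than in mESC-2i. The medians of the transporters, exporters and enzymes tested were 0.36, -0.09 and 0.32 in mESC-ser against mESC-2i, where that of all genes was -0.04, and -0.13, 0.38 and 0.01 in EpiLC against mESC-2i, where it was -0.11.

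**Figure D5:**
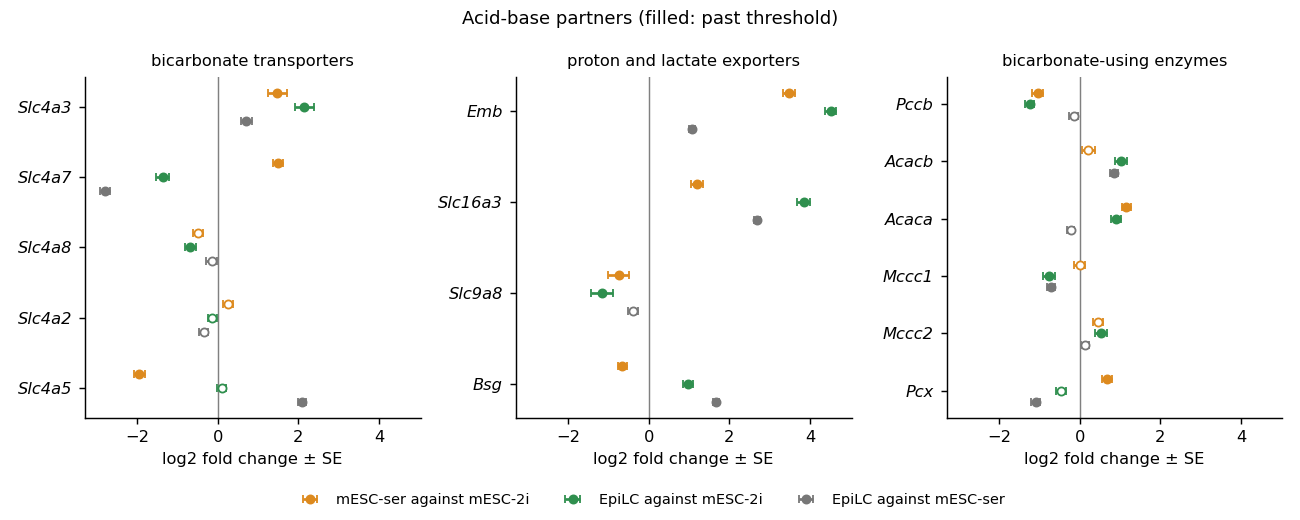
Log2 fold change ± SE (edgeR) of reported transporters, exporters and enzymes with at least 10 CPM in some state, by comparison (colours); filled points lie past the thresholds. Slc16a3 and Emb lie above 0 in the 3 comparisons, Slc4a7 lies above 0 in mESC-ser against mESC-2i and below it in both EpiLC comparisons.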

How the data were processed

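RNA was poly-A enriched and sequenced as 50 bp single-end reads from TruSeq libraries, which do not mark strand. The deposited values are raw counts per Ensembl gene: the authors trimmed reads with Trim Galore (0.6.6), aligned them to mm10 with HISAT2 (2.2.1) and counted with featureCounts of Subread (2.0.1), per the labels. The annotation release and handling of multi-mapping reads are not given in the sources used here. Symbols, positions and exonic length were taken from GENCODE M21 (GRCm38), which matched 36429 of 38293 identifiers. Unmatched rows held 0.596% to 0.827% of a library.

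Each pair of states was fitted on its 6 libraries with edgeR (4.0.16, R 4.3.3): filterByExpr, TMM, quasi-likelihood F-test, Benjamini-Hochberg adjustment over all genes tested. A gene was called at an adjusted p under 0.05 and a log2 fold change over 0.5 in size, the fold threshold of the study. Standard errors came from the F statistic. The counting intervals are exact at the 0.95 level and, as reads carried no molecular identifiers, cover counting error only. Replicates of a group differed by chi-square per degree of freedom of 1.61 to 28.3, so none were taken as duplicates. Pairs with replicate 3 of mESC-2i or mESC-ser gave 10.9 to 28.3, and all other pairs 1.61 to 4.53.

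The named genes are all 16 carbonic anhydrases, members of 3 partner lists with at least 10 CPM in some state (at most 6 per list by change in EpiLC against mESC-2i), the nearest protein-coding neighbours, and the 2 closest profiles per member (prior count 2). Of the genes this rule names, 2 are not reported here. Klf4, Fgf5, Gata6, Lama1 and Krt18 come from the marker lists and were named after their values were seen. The genes and lists were chosen with earlier results of these data known. Same-numbered libraries of mESC-ser and mESC-2i correlated at 0.128 to 0.341 in their deviations from the group means and others at -0.276 to 0.144, so the numbers may pair these libraries, although what a number stands for is not stated. The reported fits have no block, and the fit with the replicate block is an alternative. Same-numbered libraries of EpiLC and mESC-2i correlated at 0.022 to 0.109 and others at -0.113 to 0.01. With mESC-ser, those of EpiLC correlated at 0.017 to 0.034 and others at -0.031 to 0.016. The same-numbered values were the higher ones in both, so the numbers may pair these libraries too. As the values were small, below 0.1 in part, no pairing was taken. Alternatives were other scalings and filters, DESeq2 (1.42.0), 1 fit over all 9 libraries, a replicate block, offsets for length and GC content, other thresholds and leaving out each replicate. The steps were tested on simulated data. The histone data of the study were left out.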

Additional observations from a re-analysis of the deposited data

How the results depend on the processing

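With replicate number as a block, no call of a carbonic anhydrase or other reported gene changed. In mESC-ser against mESC-2i, 4 of 6 tested members passed, beside 4160 higher and 4793 lower calls of 15728 genes. In EpiLC against mESC-2i 6 of 7 passed, beside 4951 and 5808 of 15378. In EpiLC against mESC-ser 3 of 6 passed, beside 5429 and 5778 of 15345. The list counts below show only how calls moved with the setting. Over all alternatives, 303 values of the 7 genes kept direction and side of the threshold, 10 passed it newly and 3 changed sign. All 132 values of other family members kept both, and of the other named genes 1408 kept both, 77 lost the call and 10 changed sign. Genes other than the 7 were counted only in comparisons where the reported fit called them, so they could not gain a call. Settings in which a gene was not tested were not counted as losses. In mESC-ser against mESC-2i, 1 other family member was called with at least 10 counts in every library, 4935 genes and 3 exporters at a log2 fold change over 1, 6 bicarbonate-using enzymes by adjusted p alone, 5 with length and GC offsets, with or without the block, and 4 to 5 with a replicate left out, the higher count without each mESC-ser replicate. In EpiLC against mESC-2i, at least 10 counts in every library left 3 of the 7 genes and 2 other family members, since Car4, Car7 and Car8 are then not tested, and a log2 fold change over 1 left 4 exporters and 2 enzymes. In EpiLC against mESC-ser, 5 enzymes were called with total-count scaling and by adjusted p alone, and 1 at a log2 fold change over 1. There, 4 other family members were called without a filter and 1 with at least 10 counts. By adjusted p alone 8 exporters were called, beside 6260 higher and 6667 lower calls of all 15345 genes. With offsets, with or without the block, 5 of 6 tested members were called, Car12 and Car13 being added. All genes then gave 5697 higher and 4453 lower calls without the block. Signs turned with offsets, without and with the block, for Car12 (0.37 and 0.39), Slc4a8 (0.17 and 0.18), Mccc1 (0.01 in both) and Slc38a6 (0.11 and 0.12) in EpiLC against mESC-2i, and for Mccc1 (0.47) and Cd63-ps (-0.07) in EpiLC against mESC-ser, where Car12 was -0.03 with total-count scaling. The cause was not tested. The share of calls that were higher was 46.1%, 45.9% and 48.4% in the 3 comparisons, 43.5%, 33.7% and 37.4% with total-count scaling and 50.3%, 56% and 56.1% with offsets, and the median of all genes moved from -0.04, -0.11 and -0.07 to -0.09, -0.45 and -0.41 or 0.02, 0.18 and 0.15. Depth limits Car7, Car8 and Car4 where they lie near the floor.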
